A study of Homo sapiens with 4 samples.

Results

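Genes that mark arteries and veins, together with the apelin and angiopoietin signalling pairs, were examined in CD31+ cells made from H1, a long-established line of human embryonic stem cells. The set held 10 genes: the connexins GJA1, GJA4 and GJA5, the venous transcription factor NR2F2, the ligand APLN and its receptor APLNR, the ligands ANGPT1 and ANGPT2, and the receptors TEK and TIE1. They were found by symbol, and each matched a single gene among the 58229 in the deposited table. Cells of both groups were collected at day 8 of a hematopoietic differentiation driven by activin A and BMP4 and then by VEGF and bFGF. The Control group (2 libraries) had no HAND1 overexpression, and the HAND1_OE group (2 libraries) overexpressed HAND1, a basic helix-loop-helix transcription factor. The study's scheme shows doxycycline given or withheld in the days before collection; whether the Control cells carried the inducible gene is not given in the sources used here. Neither is it stated whether the libraries of a group came from separate cultures, so p-values measure the spread between these libraries, which may be technical.

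Endothelial cells take on arterial or venous identity while the vessels form. Arterial endothelium couples its cells through gap junctions built from connexins, whereas NR2F2 (COUP-TFII) represses Notch signalling and keeps venous identity. Apelin, encoded by APLN, signals through the G protein-coupled receptor APLNR, which also marks early mesoderm in stem cell cultures. ANGPT1 activates the receptor tyrosine kinase TIE2, encoded by TEK, and steadies vessels. ANGPT2 binds the same receptor, mostly acts as a context-dependent antagonist and is stored and released by endothelial cells, and TIE1 is a related receptor without a firmly known ligand that modulates TIE2.

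Levels were taken as FPKM, fragments scaled for transcript length and library depth, so levels can be compared between genes. The underlying counts are not known. The FPKM values of a library added up to between 536284 and 606609. HAND1 itself had 12.1 and 14.3 FPKM in Control, against 520 and 517 FPKM in HAND1_OE, higher where the labels name its overexpression. All 16 endothelial markers, such as PECAM1 (which encodes CD31), CDH5 and KDR, passed the filter on low values. Their summed level was 2450 to 2842 FPKM in Control and 2464 to 2731 FPKM in HAND1_OE, but single markers went both ways. In the test described below 8 of the 16 had a positive and 8 a negative log2 fold change, the largest being CLDN5 at -2.27. Blood markers moved with the groups. Their summed level over 18 genes was 1108 to 1493 FPKM in Control and 65.9 to 85.9 FPKM in HAND1_OE, with PTPRC at or near 0 in all libraries. In bulk RNA, fewer cells of a type and less RNA per cell cannot be told apart, and the part of this loss in any value below was not tested.

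Of the 8 genes that could be tested, ANGPT2 was the one that passed the test. It was higher in HAND1_OE by 8.89-fold in FPKM, while its receptor TEK, the related TIE1, the connexins, NR2F2 and APLNR did not pass, which does not show that they stayed the same. Changes were tested as differences of log2(FPKM + 1) between HAND1_OE and Control with limma, over 14622 genes at 1 FPKM or more in at least 2 libraries, and an adjusted p under 0.05 (Benjamini-Hochberg over all genes tested) was taken as a call. This scale understates the change of low genes. Of the 10 genes 8 passed the filter, and APLN and ANGPT1 did not. Of the 8, 1 was called, upward, and 0 were called downward, where 4.16% of all genes tested were called, 2.04% upward and 2.11% downward. At an unadjusted p under 0.05 there were 4 of the 8 (ANGPT2, GJA1, GJA4 and NR2F2), against 17.4% of all genes tested. The libraries of both groups did not overlap for 5 of the 8, higher in HAND1_OE for 1 and lower for 4. Over all genes tested 46.3% did not overlap, 16.2% higher and 30.1% lower. The median log2 fold change of the 8 was -0.12, beside -0.078 for all genes tested.

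**Figure D1:**
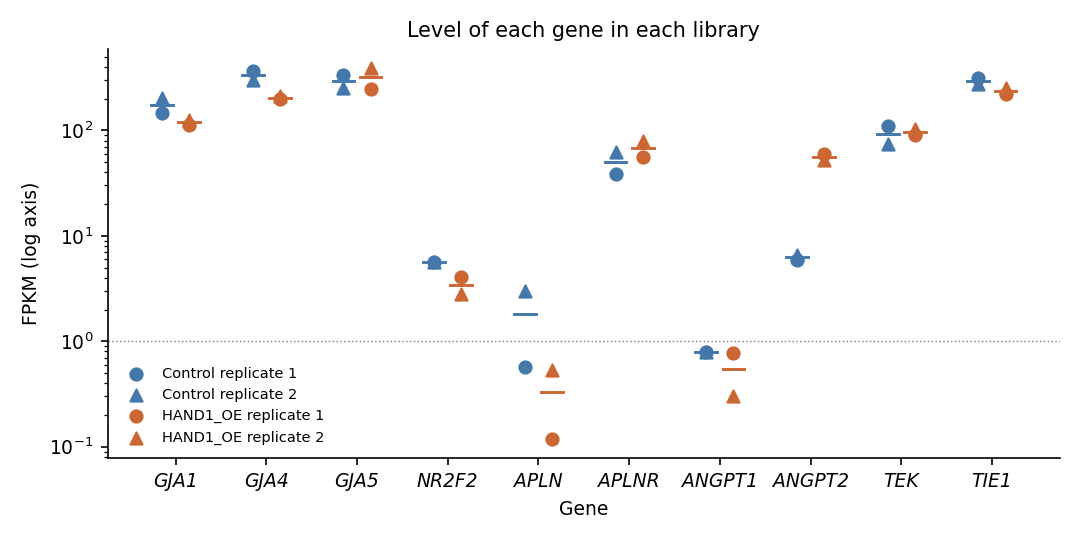
Level of each of the 10 genes in each library, in FPKM on a log axis. Circles are replicate 1 and triangles replicate 2 of Control (blue) and HAND1_OE (orange), short bars are group means, and the dotted line is 1 FPKM, the level used in the filter. ANGPT2 rises from about the level of NR2F2 to just under that of APLNR, and APLN and ANGPT1 lie mostly under the line.

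The angiopoietin ligands are taken first. ANGPT2 (ENSG00000091879.13, GRCh38 chromosome 8, 6499651 to 6563409, minus strand) measured 5.92 and 6.63 FPKM in Control, against 59.3 and 52.4 FPKM in HAND1_OE. Both HAND1_OE libraries lay far above both Control libraries, and the libraries of a group lay close together. The means were 6.28 ± 0.502 and 55.8 ± 4.92 FPKM (SD, n = 2). The log2 fold change was 2.96 (standard error 0.156, 95% interval 2.58 to 3.35, limma adjusted p = 0.00379), at rank 17 of the 14622 genes tested when ordered from the largest rise. ANGPT2 was called in 11 of 12 alternative settings, with log2 fold changes from 2.88 to 3.13. It was not called when every gene above 0 was tested (limma adjusted p = 0.153, unadjusted p = 5.77e-05), a setting in which HAND1 also failed to pass. With each library left out in turn, its adjusted p ran from 0.000839 to 0.00762.

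ANGPT2 lies inside the span of MCPH1, a gene of the opposite strand that encodes a protein of the DNA damage response. The library kit does not mark strand, so reads from introns of MCPH1 cannot be told from those of ANGPT2. MCPH1 had 5.76 and 4.88 FPKM in the Control libraries, compared with 3.95 and 5.46 FPKM under HAND1_OE. These values overlap between the groups, and the log2 fold change was -0.16 (limma adjusted p = 0.792), or 0.035 without HAND1_OE replicate 1.

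ANGPT1 (ENSG00000154188.9, chromosome 8, 107249482 to 107498055) was low in every library and was not tested. It was read at 0.785 and 0.789 FPKM without overexpression and at 0.778 and 0.304 FPKM with it. HAND1_OE replicate 1 was close to the Control libraries, and replicate 2 was lower. Within a library the ratio of ANGPT2 to ANGPT1 was 7.55 and 8.41 in Control and 76.3 and 172 in HAND1_OE. The Control mean of ANGPT1 was 1.45 times its HAND1_OE mean.

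The receptors were abundant in both groups. TEK (ENSG00000120156.20, chromosome 9, 27109141 to 27230175) measured 111 and 74.6 FPKM in Control, against 90.6 and 102 FPKM in HAND1_OE. Both HAND1_OE libraries lay between the Control libraries. Its log2 fold change was 0.081 (standard error 0.222, 95% interval -0.47 to 0.63, limma adjusted p = 0.911), and its sign turned to -0.20 without Control replicate 2 and to -0.0043 without HAND1_OE replicate 2.

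TIE1 (ENSG00000066056.13, chromosome 1, 43300993 to 43323108) had 311 and 278 FPKM in the Control libraries, compared with 219 and 251 FPKM under HAND1_OE. Both HAND1_OE libraries were lower than both Control libraries, by less than the test could call. On the log2 scale the change was -0.33 (standard error 0.164, 95% interval -0.73 to 0.080, limma adjusted p = 0.397). The ratio of TIE1 to TEK was 2.81 and 3.72 in Control and 2.42 and 2.46 in HAND1_OE, so TIE1 exceeded TEK in every library.

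Relative to its receptor TEK, ANGPT2 stood higher in HAND1_OE than in Control. The ratio of ANGPT2 to TEK was 0.0536 and 0.0889 in Control and 0.655 and 0.513 in HAND1_OE. Against TIE1 it was 0.0190 and 0.0239 in Control and 0.271 and 0.209 in HAND1_OE. Neither ratio overlapped between the groups, and with 2 libraries a group an exact permutation test of a single ratio cannot go below p = 0.333.

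**Figure D2:**
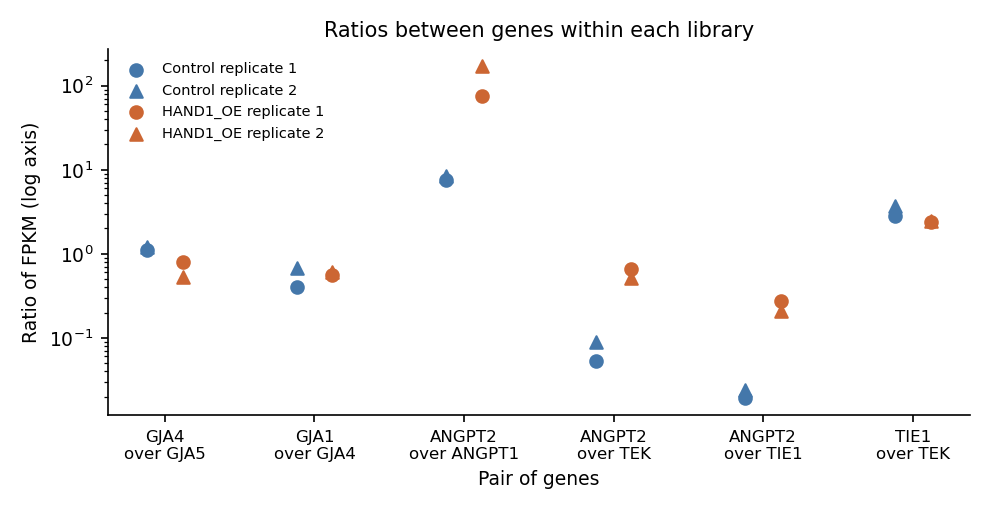
Ratio of FPKM between pairs of genes within each library, on a log axis, with circles for replicate 1 and triangles for replicate 2 of Control (blue) and HAND1_OE (orange). The 3 ratios with ANGPT2 as numerator stand apart between the groups by far more than GJA1 over GJA4, whose groups overlap.

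Of 20 other listed genes of angiopoietin and TIE signalling 17 were tested, with 0 called in either direction where 4.16% of all genes tested were, 7 with a positive and 10 with a negative log2 fold change and a median of -0.029. PTPRB, the phosphatase that removes phosphate from TIE2, was read at 24.3 and 21.4 FPKM without overexpression and at 13.2 and 17.8 FPKM with it (log2 fold change -0.55, limma adjusted p = 0.232). FOXO1, a transcription factor that TIE2 signalling inhibits, measured 11.2 and 10.02 FPKM in Control, against 13.3 and 12.9 FPKM in HAND1_OE (log2 fold change 0.28, limma adjusted p = 0.437); this gene falls outside the rule for named genes and was chosen after its values were seen. The third angiopoietin, ANGPT4, was under the filter, with 0.0205 and 0.0421 FPKM in Control and 0.279 and 0.615 FPKM in HAND1_OE.

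The connexins of the set were among its most abundant genes. GJA4 (connexin 37; ENSG00000187513.8, chromosome 1, 34792998 to 34795747) had 366 and 303 FPKM in the Control libraries, compared with 199 and 210 FPKM under HAND1_OE. Both HAND1_OE libraries were lower than both Control libraries, and the Control mean was 1.64 times the HAND1_OE mean. The fitted log2 fold change was -0.70 (standard error 0.168, 95% interval -1.12 to -0.29), which did not pass over all genes (limma adjusted p = 0.0941). It was called lower in 2 of 12 alternative settings, 1 of them quantile normalization (log2 fold change -0.77, limma adjusted p = 0.0375).

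GJA5 (connexin 40; ENSG00000265107.2, chromosome 1, 147756199 to 147773362), the other arterial connexin, was read at 334 and 252 FPKM without overexpression and at 249 and 392 FPKM with it. The groups overlapped widely, since the HAND1_OE libraries held both the lowest and the highest value. The log2 fold change was 0.10 (standard error 0.272, 95% interval -0.57 to 0.78, limma adjusted p = 0.906). It was -0.098 without Control replicate 2 and -0.22 without HAND1_OE replicate 2, so a single library decides its sign. The ratio of GJA4 to GJA5 was 1.10 and 1.20 in Control and 0.799 and 0.536 in HAND1_OE, with no overlap, which was not tested beyond the limit of 0.333 given above for such ratios.

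GJA1 (connexin 43; ENSG00000152661.7, chromosome 6, 121435692 to 121449727) is a connexin of many tissues, including mesenchyme and heart. It measured 146 and 204 FPKM in Control, against 112 and 127 FPKM in HAND1_OE. Both HAND1_OE libraries were lower, though Control replicate 1 lay nearer to them than to Control replicate 2. Its log2 fold change was -0.53 (standard error 0.205, 95% interval -1.04 to -0.021, limma adjusted p = 0.268), and it was -0.29 without Control replicate 2. Its processed pseudogene GJA1P1, a near-identical copy, was at 0.0527 to 0.428 FPKM. The ratio of GJA1 to GJA4 was 0.399 and 0.672 in Control and 0.565 and 0.603 in HAND1_OE, values that overlap.

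Other connexins were scarce. Of 17 listed genes 3 passed the filter and 0 were called, where 4.16% of all genes tested were. The summed level of the 17 was 20.2 to 24.1 FPKM in Control and 16.6 to 19.5 FPKM in HAND1_OE. GJC1 (connexin 45), an early vascular and cardiac connexin, had 10.1 and 13.4 FPKM in the Control libraries, compared with 9.82 and 11.2 FPKM under HAND1_OE (log2 fold change -0.14, limma adjusted p = 0.804; 0.050 without Control replicate 2).

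**Figure D3:**
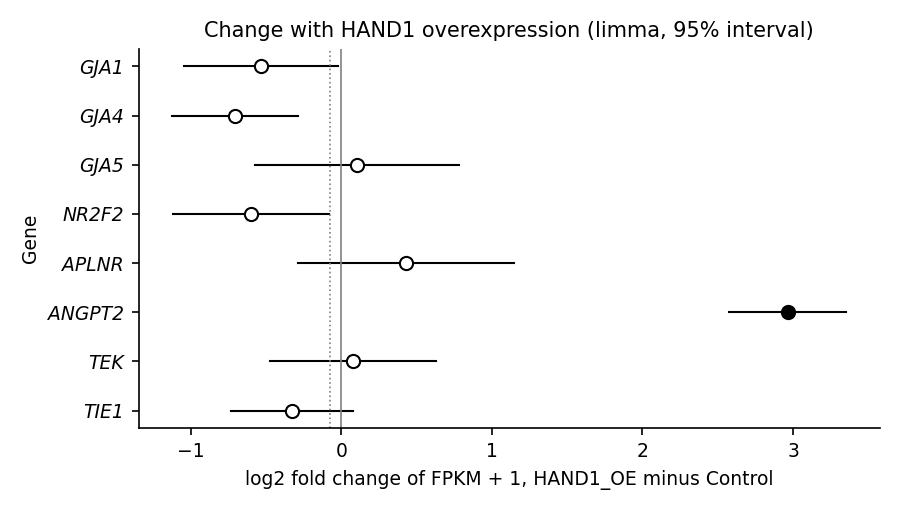
Log2 fold change of FPKM + 1, HAND1_OE minus Control, for the 8 tested genes, with points for the limma estimate, bars for its 95% interval, a solid line at 0 and a dotted line at the median of all genes tested (-0.078). The filled point marks the call, ANGPT2 at 2.96; the open points lie between -0.70 and 0.43.

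NR2F2, the venous factor, was low beside the arterial connexins. NR2F2 (ENSG00000185551.14, chromosome 15, 96325938 to 96340263) was read at 5.61 and 5.68 FPKM without overexpression and at 4.08 and 2.79 FPKM with it. Both HAND1_OE libraries were lower. On the log2 scale the change was -0.60 (standard error 0.209, 95% interval -1.12 to -0.080, limma adjusted p = 0.225), and it moved between -0.39 without HAND1_OE replicate 2 and -0.81 without HAND1_OE replicate 1. The antisense gene NR2F2-AS1, which overlaps its start, was at 0.0490 to 0.197 FPKM.

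The paralog NR2F1 (COUP-TFI), which shares DNA targets with NR2F2, was called higher in HAND1_OE. It measured 1.27 and 0.866 FPKM in Control, against 14.3 and 5.91 FPKM in HAND1_OE, higher in both HAND1_OE libraries but by unequal amounts. The fitted log2 fold change was 2.32 (standard error 0.392, limma adjusted p = 0.0397), and it was not called without Control replicate 1 (adjusted p = 0.0661) or Control replicate 2 (0.0950). With 1 FPKM required in every library it could not be tested. NR2F6 had 82.3 and 82.5 FPKM in the Control libraries, compared with 78.6 and 58.8 FPKM under HAND1_OE (log2 fold change -0.27, limma adjusted p = 0.542). Of 6 listed relatives of NR2F2, 4 were tested, NR2F1 was called higher, 0 were called lower, and the median was -0.25. Over all genes tested 2.04% were called higher and 2.11% lower.

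In the apelin pair, ligand and receptor stood at very different levels. APLN (ENSG00000171388.11, chromosome X, 129645259 to 129654937) was read at 0.571 and 3.02 FPKM without overexpression and at 0.118 and 0.538 FPKM with it, and was not tested. Control replicate 2 alone exceeded 1 FPKM, and Control replicate 1 was close to HAND1_OE replicate 2. With every gene above 0 tested, its log2 fold change was -0.94 (limma adjusted p = 0.652).

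APLNR (ENSG00000134817.10, chromosome 11, 57233577 to 57237314) measured 38.2 and 62.9 FPKM in Control, against 56.03 and 78.7 FPKM in HAND1_OE. The groups overlapped, with replicate 2 above replicate 1 in both. The log2 fold change was 0.43 (standard error 0.289, 95% interval -0.29 to 1.15, limma adjusted p = 0.544). Leaving out Control replicate 1 gave 0.078 and leaving out HAND1_OE replicate 2 gave 0.19, while 0.78 resulted without Control replicate 2 and 0.67 without HAND1_OE replicate 1.

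APELA, the second ligand of APLNR, had 3.53 and 4.84 FPKM in the Control libraries, compared with 2.48 and 5.58 FPKM under HAND1_OE. The groups overlapped (log2 fold change -0.10, limma adjusted p = 0.929), and its sign turned with quantile normalization (0.0092), without Control replicate 2 (0.078) and without HAND1_OE replicate 1 (0.36). Of 17 listed genes of apelin signalling, which include processing enzymes, G proteins, arrestins and downstream factors, 16 were tested. Of these, 0 were called in either direction, where 4.16% of all genes tested were. Their log2 fold changes were positive for 10 and negative for 6, with a median of 0.14, beside -0.078 for all genes tested.

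The order of the levels differed between the groups in the places of GJA4 and GJA5 and of APLN and ANGPT1. In Control it ran GJA4, TIE1, GJA5, GJA1, TEK, APLNR, ANGPT2, NR2F2, APLN, ANGPT1. GJA4 and TIE1 overlapped, as did TIE1 and GJA5, and APLN and ANGPT1, while the other neighbours did not. In HAND1_OE it ran GJA5, TIE1, GJA4, GJA1, TEK, APLNR, ANGPT2, NR2F2, ANGPT1, APLN. GJA5 overlapped with TIE1, APLNR with ANGPT2, and ANGPT1 with APLN. ANGPT2 kept its place after APLNR, but in Control it stood apart from APLNR (6.63 against 38.2 FPKM at the nearest libraries) and in HAND1_OE it did not (59.3 against 56.03 FPKM).

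Other genes of vessel identity were read against the 4.16% of all genes tested that were called. Of 23 other arterial endothelial genes 21 were tested, 1 was called higher and 1 lower, and the median was -0.19; it was 0.037 without Control replicate 2 and 0.0055 without HAND1_OE replicate 1. EPAS1, which encodes the hypoxia-inducible factor HIF-2 alpha, was read at 26.1 and 34.2 FPKM without overexpression and at 74.8 and 82.96 FPKM with it (log2 fold change 1.37, limma adjusted p = 0.022; 0.0707 without Control replicate 1). HEY2, a Notch target of arterial cells, fell from 36.5 and 31.9 FPKM in Control to 12.7 and 16.3 FPKM in HAND1_OE (log2 fold change -1.19, limma adjusted p = 0.0311). HEY2 was not called without Control replicate 1 (0.115), Control replicate 2 (0.0822) or HAND1_OE replicate 1 (0.0567). The arterial ligand EFNB2 measured 153 and 157 FPKM in Control, against 105 and 142 FPKM in HAND1_OE (log2 fold change -0.34, limma adjusted p = 0.458).

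Of 13 other venous and lymphatic endothelial genes 9 were tested, 1 was called higher and 0 lower, and the median was -0.085. VWF, a clotting protein stored with ANGPT2 in the Weibel-Palade bodies of endothelial cells, had 31.3 and 14.6 FPKM in the Control libraries, compared with 107 and 95.4 FPKM under HAND1_OE (log2 fold change 2.18, limma adjusted p = 0.0338). EPHB4, the venous receptor of EFNB2, was read at 148 and 118 FPKM without overexpression and at 109 and 101 FPKM with it (log2 fold change -0.33, limma adjusted p = 0.412). The summed level of this list was 388 to 468 FPKM in Control and 515 to 534 FPKM in HAND1_OE, and that of the arterial list 1480 to 1531 and 1453 to 1560 FPKM. A large part of the higher venous sum was VWF, with means of 23.0 FPKM in Control and 101 FPKM in HAND1_OE. Of the 9 tested genes of the venous list, 4 had a positive and 5 a negative log2 fold change.

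**Figure D4:**
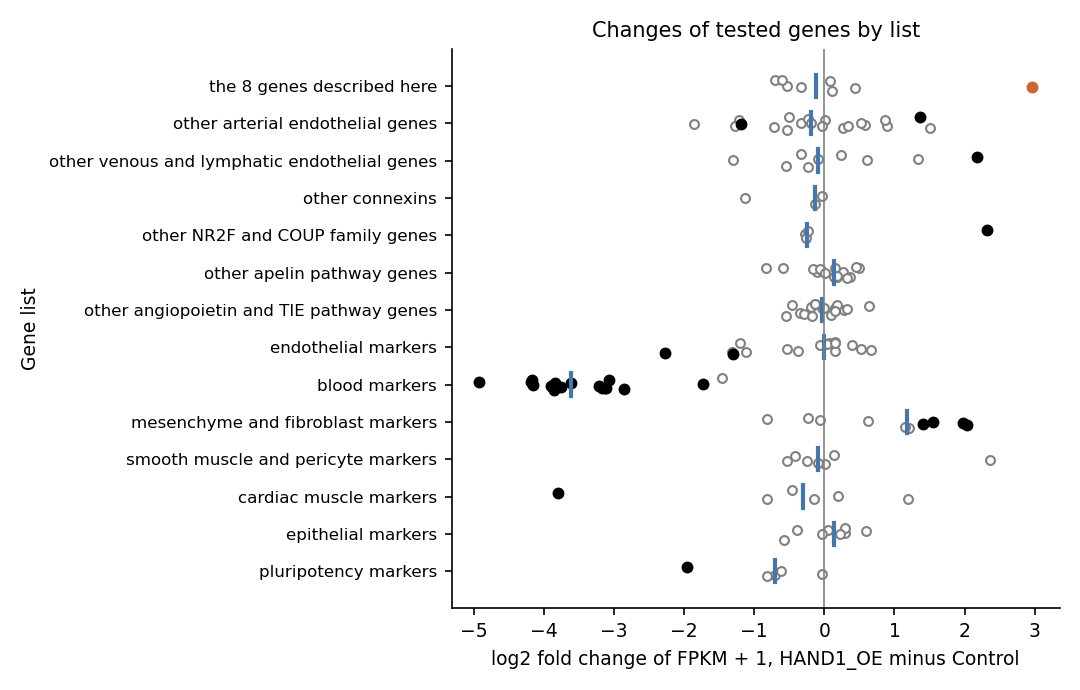
Log2 fold change of FPKM + 1, HAND1_OE minus Control, of every tested gene by list, with filled points for genes at a limma adjusted p under 0.05, open points for the others and blue bars for list medians. ANGPT2 (orange) lies to the right of every pathway gene, and the blood markers have a median of -3.62.

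Markers of other cell types moved beside these genes. Of 17 tested blood markers 16 were called lower and 0 higher, with a median of -3.62, led by GYPB (-4.93), HBE1 (-4.19) and ALAS2 (-4.18). Of 10 tested mesenchyme and fibroblast markers 4 were called higher and 0 lower, with a median of 1.18, led by PDGFRB (2.03), POSTN (1.97) and FBN1 (1.55). Their summed level over 12 genes was 752 to 826 FPKM in Control and 1153 to 1173 FPKM in HAND1_OE. Large parts of this sum were THY1 (means 381 and 590 FPKM) and COL3A1 (129 and 283 FPKM), which were not called. Of the 10, 7 had a positive log2 fold change and 3 a negative one, COL1A2 (-0.82), COL1A1 (-0.23) and TWIST1 (-0.060). Of the 16 endothelial markers 2 were called lower (CLDN5, -2.27, and SOX18, -1.31) and 0 higher, with a median of -0.012. ROBO4 (-1.32), FLI1 (-1.21) and TAL1 (-1.12) were lower without a call, and 8 of the 16 had a positive log2 fold change. Smooth muscle and pericyte markers, which bear on angiopoietins because pericytes make ANGPT1, had 0 calls among 7 tested genes and a median of -0.089. Of the 7, 3 had a positive and 4 a negative log2 fold change. CSPG4 moved most, from 1.61 and 8.03 FPKM in Control to 21.7 and 26.6 FPKM in HAND1_OE. Its log2 fold change was 2.36, without a call (limma adjusted p = 0.094). ACTA2 (0.13) and RGS5 (-0.25) were not called either, and MYH11 was at or near 0 in each library. Cardiac muscle markers (1 of 6 lower, MYL4, median -0.31), epithelial markers (0 of 8, median 0.14) and pluripotency markers (1 of 5 lower, GDF3, median -0.70) made up the rest. The cardiac markers went both ways, 2 with a positive and 4 with a negative log2 fold change. MYL4 was at -3.80 and TNNT2 at 1.20 (limma adjusted p = 0.0914 for TNNT2). The part of these shifts in the ANGPT2 value was not tested.

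The bases before the RefSeq start of a few of these genes are shown because HAND1 belongs to a family of factors that bind the E-box, CANNTG, which reads as an E-box on both strands. RefSeq windows (GRCh38.p14) were at hand for 6 of the 10 genes, GJA1, GJA5, NR2F2, APLN, TEK and TIE1. Those of the connexins GJA1 and GJA5, of TIE1 and of APLN are printed, 250 bases each, 5′ to 3′ on the strand of the gene, with E-boxes in capitals.
GJA1, chr6:121435396-121435645, plus strand: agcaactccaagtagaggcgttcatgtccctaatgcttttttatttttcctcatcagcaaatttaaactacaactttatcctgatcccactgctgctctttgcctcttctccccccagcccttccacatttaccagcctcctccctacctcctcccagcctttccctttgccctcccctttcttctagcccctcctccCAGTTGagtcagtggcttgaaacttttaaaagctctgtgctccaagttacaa
GJA5, chr1:147773352-147773601, minus strand: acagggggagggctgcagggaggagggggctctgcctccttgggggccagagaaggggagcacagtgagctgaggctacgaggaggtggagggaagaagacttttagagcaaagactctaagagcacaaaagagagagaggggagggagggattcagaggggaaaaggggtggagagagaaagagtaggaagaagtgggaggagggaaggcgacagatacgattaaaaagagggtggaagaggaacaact
TIE1, chr1:43300732-43300981, plus strand: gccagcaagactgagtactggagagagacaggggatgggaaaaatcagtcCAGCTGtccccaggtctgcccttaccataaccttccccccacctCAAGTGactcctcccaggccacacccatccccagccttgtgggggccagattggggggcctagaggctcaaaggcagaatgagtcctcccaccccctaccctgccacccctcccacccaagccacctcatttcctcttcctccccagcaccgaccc
APLN, chrX:129654957-129655206, minus strand: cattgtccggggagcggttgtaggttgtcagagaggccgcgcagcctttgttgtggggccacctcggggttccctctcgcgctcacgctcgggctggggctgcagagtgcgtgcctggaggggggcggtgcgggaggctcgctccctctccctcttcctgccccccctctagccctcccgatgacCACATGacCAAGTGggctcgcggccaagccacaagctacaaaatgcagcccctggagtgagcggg

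Of these windows, that of GJA5 held no E-box, that of GJA1 held 1, beginning 52 bases before the start, and those of TIE1 and APLN held 2 each. Of the 6 genes 5 had an E-box in the window, and 61.8% of all 35116 windows of this length did. The window of NR2F2 (96332315 to 96332564) precedes a RefSeq start inside the gene span given above. Its 2 E-boxes therefore lie within the gene, not before it. The letters CATCTG, searched on both strands, were in 0 of the 6 and in 12.2% of all windows, and each such match is also a CANNTG match. Of these 4 genes APLN was not tested and the others were not called, and a match describes letters in a window, not binding.

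**Figure D5:**
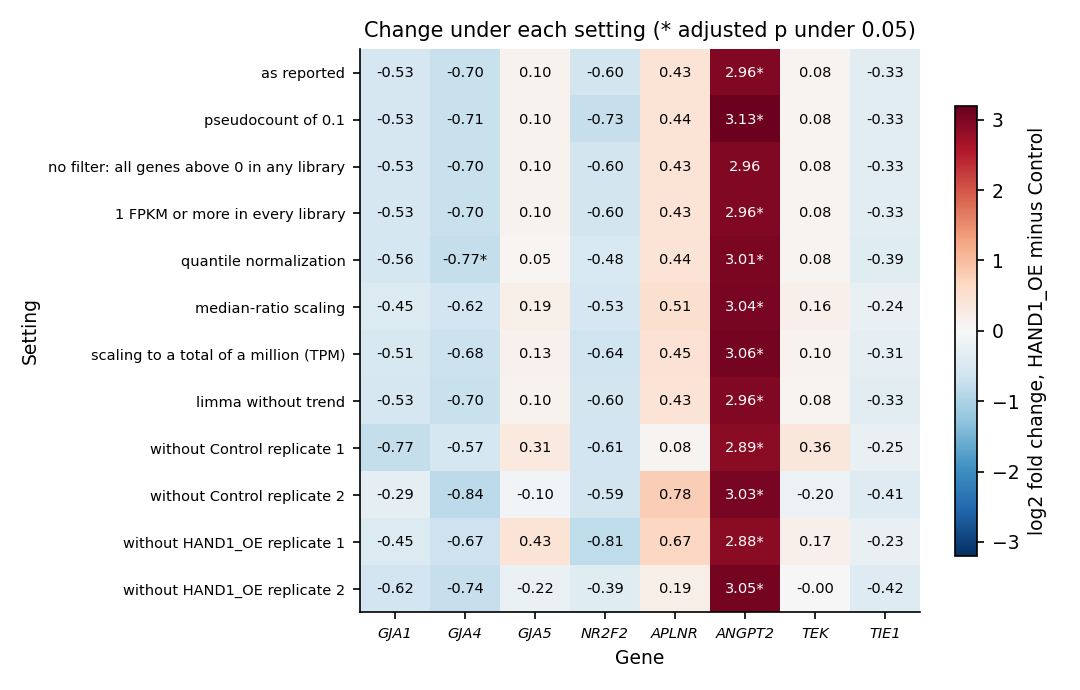
Log2 fold change of FPKM + 1, HAND1_OE minus Control, of the 8 tested genes (columns) as reported and under 11 of the 12 alternative settings (rows; the fit with a block for the replicate number is not drawn), with the value written in each cell and an asterisk at a limma adjusted p under 0.05. ANGPT2 stays between 2.88 and 3.13 and carries an asterisk in all rows but the one that tests every gene above 0, and among the rows drawn GJA4 carries one after quantile normalization.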

How the data were processed

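RNA of CD31+ cells from 2 Control and 2 HAND1_OE libraries was sequenced after preparation with an Illumina TruSeq RNA kit, which does not mark strand. Groups and replicate numbers came from the sample titles. The authors deposited 1 table of values per gene and library, read here as FPKM, the unit on the study's plot of the same cells; they hold decimals, and no common total. The submitters' processing notes name BWA, Bowtie, RSEM and the build hg19, with no role or version, whereas 55587 of 55723 rows whose versioned ID matched GENCODE release 29 carry its GRCh38 coordinates. Coordinates are given as GRCh38, counted from 1.

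Of 58365 rows, 45 from the Y copies of pseudoautosomal genes were dropped, and 91 further rows shared a gene ID with a higher row. The HAND1_OE and Control groups were compared on log2(FPKM + 1) using limma 3.58.1 under R 4.3.3, its mean-variance trend included, over genes at 1 FPKM or more in at least 2 libraries. Tests are two-sided. In data simulated from the fitted spread, the same code returned the planted log2 fold changes on average. This checks the code and not the calls made here, since the simulated spread came from the fit itself. All 186 listed genes matched the table. The members, lists and tests were chosen with earlier results of these data known. Named genes are the 10 members, HAND1, up to 3 called genes of each list with the largest change and 8 close relatives or partners of the members. Outside this rule, and chosen after their values were seen, are FOXO1, PTPRC and the genes that overlap or copy a member. The same holds for the markers PECAM1, CDH5, KDR, ROBO4, FLI1, TAL1, MYH11, ACTA2, RGS5, CSPG4, THY1, COL3A1, COL1A1, COL1A2, TWIST1 and TNNT2. FPKM holds no counts, so no interval for counting error is given. Alternatives were a pseudocount of 0.1, 2 other filters, 3 scalings, a fold of at least 2, no trend, omission of each library, and a block for the replicate number. Promoter sequences came from RefSeq.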

Additional observations from a re-analysis of the deposited data

How the results depend on the processing

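When every gene above 0 was tested, HAND1 had a log2 fold change of 5.20 and a limma adjusted p = 0.153. In that setting 0 genes were called in either direction over all genes (1458 upward and 2352 downward by an unadjusted p under 0.05), 0 of the 10 members were higher (1 at an unadjusted p under 0.05), and 0 genes of the 6 pathway lists were higher or lower (11 and 14 at an unadjusted p under 0.05). As reported, 299 genes were higher and 309 lower, and of the pathway genes 3 were higher and 1 lower. The lower pathway count was 4 with 1 FPKM in every library, 2 after quantile normalization and 3 with each library scaled to the same total. After quantile normalization 1 member, GJA4, was called lower. The cause of these shifts was not tested.

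With each library left out in turn, the log2 fold change of HAND1 ran from 5.08 to 5.31, genes called higher from 134 to 266 and lower from 137 to 309, members called higher stayed at 1 (ANGPT2), and pathway genes called higher ran from 2 to 4 and lower from 0 to 4. Here 141 were higher and 144 lower without Control replicate 1, and 134 and 137 without Control replicate 2. Under these the sign of 5 single genes turned: GJA5 ran from -0.22 to 0.43, TEK from -0.20 to 0.36, APELA from -0.56 to 0.36, GJC1 from -0.32 to 0.050 and MCPH1 from -0.35 to 0.035. APELA also turned after quantile normalization (0.0092). A lone library in a group is assumed to vary like the others.

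Libraries of the groups share replicate numbers, and the labels say nothing of what a number marks. Deviations of same-numbered libraries from their group means correlated at 0.383 across genes, with 2 pairs, which does not settle a pairing. With the replicate number as a block (replicate block), 597 genes were higher and 712 lower, GJA4 was called lower (limma adjusted p = 0.0442; 1 member lower), and 7 pathway genes were higher and 5 lower. Count-based alternatives were planned but not run, the values being FPKM. Depth is unknown, so a low value such as that of APLN or ANGPT1 has no counting limit.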
